A study of Homo sapiens with 8 samples.

Results

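The enzymes that write and remove DNA methylation were examined in H1 cells, an established human embryonic stem cell line, through 9 genes chosen by symbol: DNMT1, UHRF1, DNMT3A, DNMT3B, DNMT3L, TET1, TET2, TET3 and TDG. The array platform's annotation gave these symbols to 19 of the 47323 probes, which cover 8 of the 9 genes. No probe carried the symbol TET3, so that gene was not analysed here. RNA had been measured on 8 Illumina arrays, 2 in each of 4 groups: H1 cells transduced with an OE-NANOG, an OE-OCT4 or an OE-SOX2 lentivirus, and H1 cells transduced with an EF1a-control lentivirus. All groups received virus with polybrene and grew on Matrigel in mTeSR medium, so the control cells carry a vector too. The promoter of the overexpression vectors, the time from transduction to harvest and whether replicates were separate cultures remain unstated in the labels. The p-values therefore weigh a difference only against the spread between arrays, pooled over the 4 groups, and that spread may be technical variation. Groups are called below by their labels.

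Methylation of cytosine in CpG dinucleotides is copied at replication by the maintenance methyltransferase DNMT1, which UHRF1 brings to hemimethylated DNA. DNMT3A and DNMT3B place new methyl groups, helped by the catalytically inactive DNMT3L. The TET dioxygenases oxidise 5-methylcytosine, and the glycosylase TDG cuts out the more oxidised forms for repair. Human pluripotent stem cells are known for high DNMT3B and TET1, both of which decline on differentiation.

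The deposited values are brightness on a linear scale, with a median of 117.1 on each array. A probe entered the tests if at least 2 of the 8 arrays read it above 123.7, the 60th percentile over all probes and arrays, and 21828 probes did. Replicate arrays were close in the NANOG group and far apart in the SOX2 group: the share of these probes that differed by more than 0.5 log2 units between the arrays of a group was 0.165% for NANOG, 2.39% for OCT4, 14.9% for SOX2 and 3.7% for control. Of 11 stem cell markers with a probe, 11 passed the filter, LIN28A, SALL4 and POU5F1 among them, while 0 of 4 trophoblast markers and, of 3 neural progenitor markers, only NES did. Of the 6 probes of NANOG, POU5F1 or SOX2, 0 were above control in the group named for their gene (log2 differences from -1.15 to -0.01), and SOX2 probe ILMN_2177156 was called lower on the SOX2 arrays (-1.15, adjusted p = 0.0084). Where these probes lie in the transcripts was not known, and one that lies outside the vector's insert is no check of the labels. In bulk RNA of this kind, fewer cells of a type and less RNA per cell cannot be told apart.

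Of the 19 probes of the methylation genes, 13 passed the filter, and they represent DNMT1, UHRF1, DNMT3A, DNMT3B, TET1 and TDG. DNMT3L and TET2 had no probe past it. Both DNMT3L probes read 99.4 to 125 over the 8 arrays and the TET2 probe read 99.1 to 115, which is near the array median, so no difference is given for either gene. A further 2 DNMT3A probes and 1 DNMT3B probe read at that level as well, at 92.7 to 123 and 106 to 116. Levels of different probes were not set against each other, since probes differ in how strongly they bind.

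**Figure D1:**
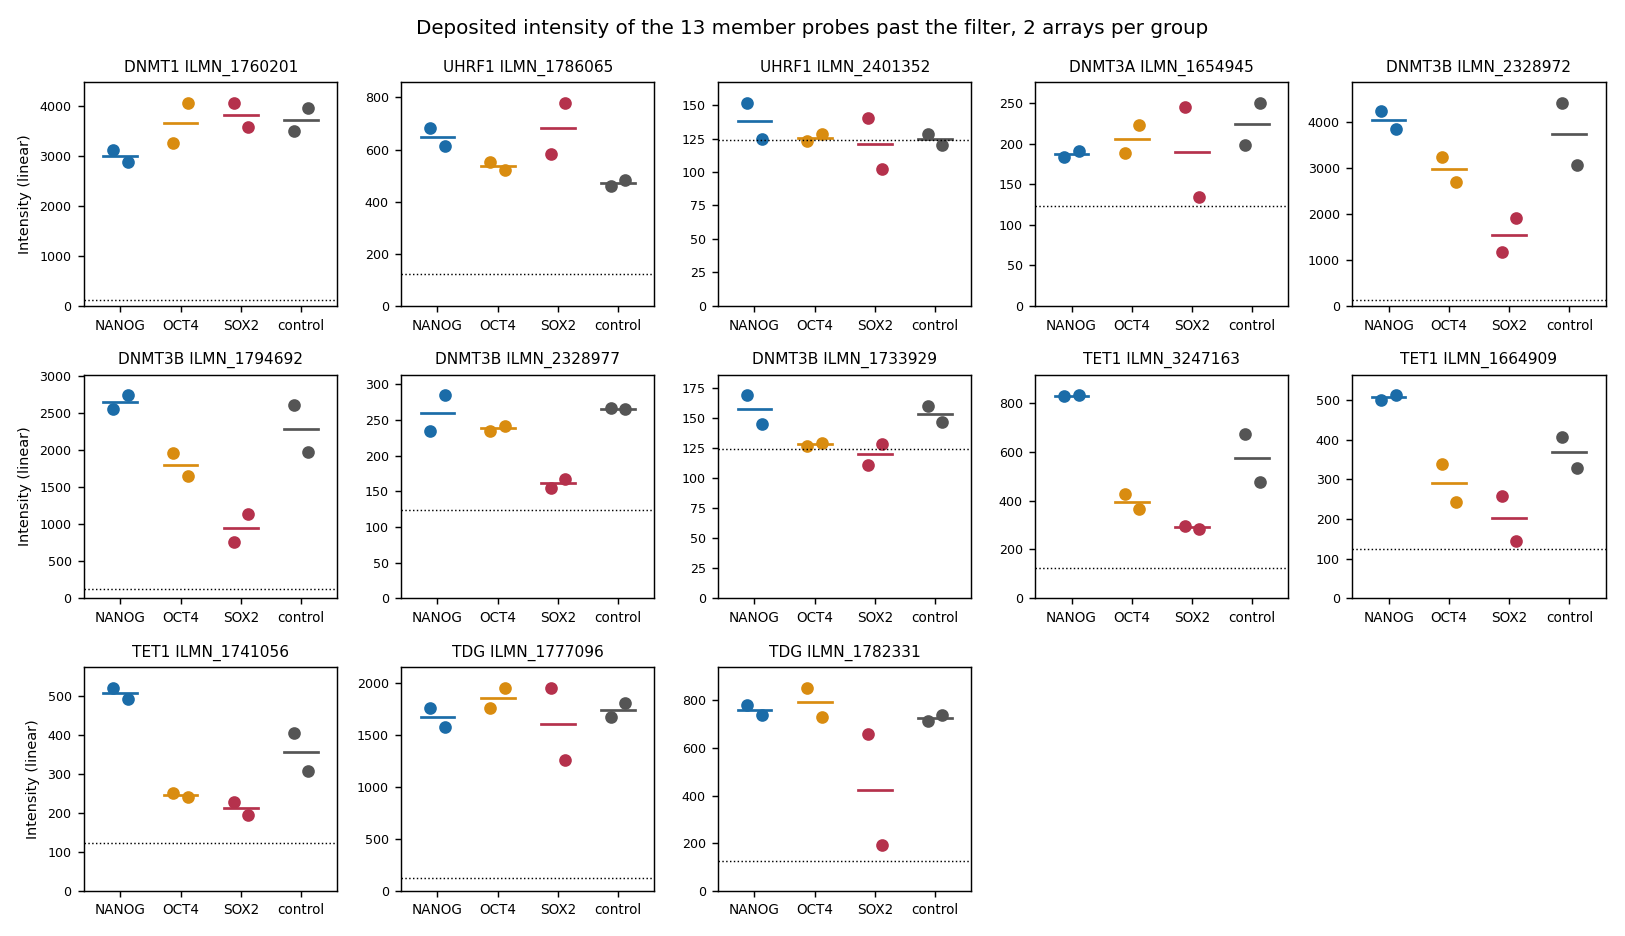
Deposited intensity (linear scale, from 0) of the 13 probes that passed the filter. Each point is 1 array, short lines are means of the 2 arrays of a group, and the dotted line is the filter intensity of 123.7; every panel has its own axis. The DNMT3B probes are lowest on average on the SOX2 arrays, and the TET1 probes are highest on the NANOG arrays and lowest on average on the SOX2 arrays.

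DNMT3B and TET1 were the only members with probes that passed in a test between groups, and a member that did not pass may still differ. In limma's moderated F test over the 4 groups, adjusted with Benjamini-Hochberg over all 21828 probes, 6 of the 13 member probes passed at 0.05, 3 of DNMT3B and 3 of TET1, against 11.4% of all probes. Both genes had probes called lower in cells labelled SOX2 than in control cells and than in cells labelled NANOG. TET1 had probes called higher with NANOG than with OCT4, and DNMT3B had probes called higher with OCT4 than with SOX2. The SOX2 calls against control depended on which arrays entered the fit, as given below. Promoter stretches at a listed start of DNMT3B and TET1 are shown because these are the members with a call. The sequences are the 250 bases before a start listed for the gene, 5′ to 3′ on the gene's own strand, from RefSeq on GRCh38.p14, with each CpG in capitals. The DNMT3B stretch lies at chr20:32779602-32779851 on the plus strand, before the only start listed for that gene in the source used. The gene may have other starts, and whether the transcript tied to the called probes begins at this one was not examined. The TET1 stretch lies at chr10:68560087-68560336 on the plus strand and is the most upstream of 3 starts listed for the gene.
DNMT3B: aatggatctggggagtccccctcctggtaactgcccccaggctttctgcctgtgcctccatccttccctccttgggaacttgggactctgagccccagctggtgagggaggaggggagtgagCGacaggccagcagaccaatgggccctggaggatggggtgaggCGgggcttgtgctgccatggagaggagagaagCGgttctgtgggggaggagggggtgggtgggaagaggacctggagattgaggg
TET1: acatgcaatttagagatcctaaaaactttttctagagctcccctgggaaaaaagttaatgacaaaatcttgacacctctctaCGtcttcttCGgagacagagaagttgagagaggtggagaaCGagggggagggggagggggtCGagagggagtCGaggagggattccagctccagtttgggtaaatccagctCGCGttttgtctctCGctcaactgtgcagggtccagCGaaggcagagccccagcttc

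The DNMT3B stretch holds 3 CpGs and the TET1 stretch 9, against a median of 11 (quartiles 3 and 23) over 35114 promoter stretches of the same length. Fewer CpGs than in the DNMT3B stretch were held by 22.9% of these, and fewer than in the TET1 stretch by 45.9%. The other starts of TET1 had 4 and 11. Among the measured members without a call, the stretches held 21 for DNMT1, 22 for TDG, 12 to 33 over the 6 starts of DNMT3A and 28 to 41 over the 3 starts of UHRF1. Whether the number of CpGs goes with a call was not tested. The DNMT3B numbers here, and the motif match below, hold only for the start listed. That start may not be where the transcript tied to the called probes begins, so the promoter of that transcript may hold another number. Windows of 300 bases, 250 before to 50 after the start, were searched on both strands for the SOX core motifs CTTTGTT and CATTGTT and for the octamer ATTTGCAT that OCT4 binds, motifs chosen after the windows had been seen. The DNMT3B window had 1 match, to CTTTGTT, which lies after the start and outside the stretch shown, and 5.2% of all windows hold that motif. The TET1 window of the stretch shown had 0 matches. The third TET1 window had 1 match to CATTGTT, which 3.33% of windows hold. A match is a description of the sequence and says nothing of binding.

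DNMT3B, the main enzyme of new methylation in pluripotent cells, was read by 4 probes past the filter. The brightest, ILMN_2328972, read 1165 and 1900.2 on the SOX2 arrays, against 4418 and 3054 on the control arrays. The groups did not overlap, and the arrays lay apart within each of them. The probe fell by 1.33 on the log2 scale (SE 0.25, n = 2 against 2, limma adjusted p = 0.0196), which makes the control level 2.51-fold the SOX2 level. ILMN_1794692 read 757 and 1135 on the SOX2 arrays, against 2614 and 1970.1 on the control arrays, and also fell by 1.33 (SE 0.22, adjusted p = 0.0105). The dimmer ILMN_2328977 read 155 and 167 on the SOX2 arrays, against 266 and 265 on the control arrays, and fell by 0.91 (SE 0.13, adjusted p = 0.00744). Here the arrays of each group lay close together. The dimmest, ILMN_1733929, exceeded the filter intensity on only 1 of the SOX2 arrays (111 and 128, against 159.8 and 146 in control) and did not pass (log2 difference -0.52, adjusted p = 0.0761).

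The DNMT3B probes moved together over the 8 arrays. Pearson's r of their log2 levels was 0.71 to 0.99 over the 6 pairs of probes, a description in which all points share the same arrays. The platform annotation ties these 4 probes to 1 transcript, and the probe it ties to a different DNMT3B transcript was the dim one left out. Within the control group, the first array exceeded the second by 0.54 and 0.42 log2 units at the brightest probes, and within the SOX2 group the second exceeded the first (-0.73 and -0.61). In cells labelled OCT4, ILMN_2328972 read 3245 and 2687, between the SOX2 and control means, with a log2 difference from control of -0.32 (95% interval -0.90 to 0.26). In cells labelled NANOG it read 4236 and 3849, within the range of the control arrays (log2 difference 0.14, 95% interval -0.44 to 0.72).

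**Figure D2:**
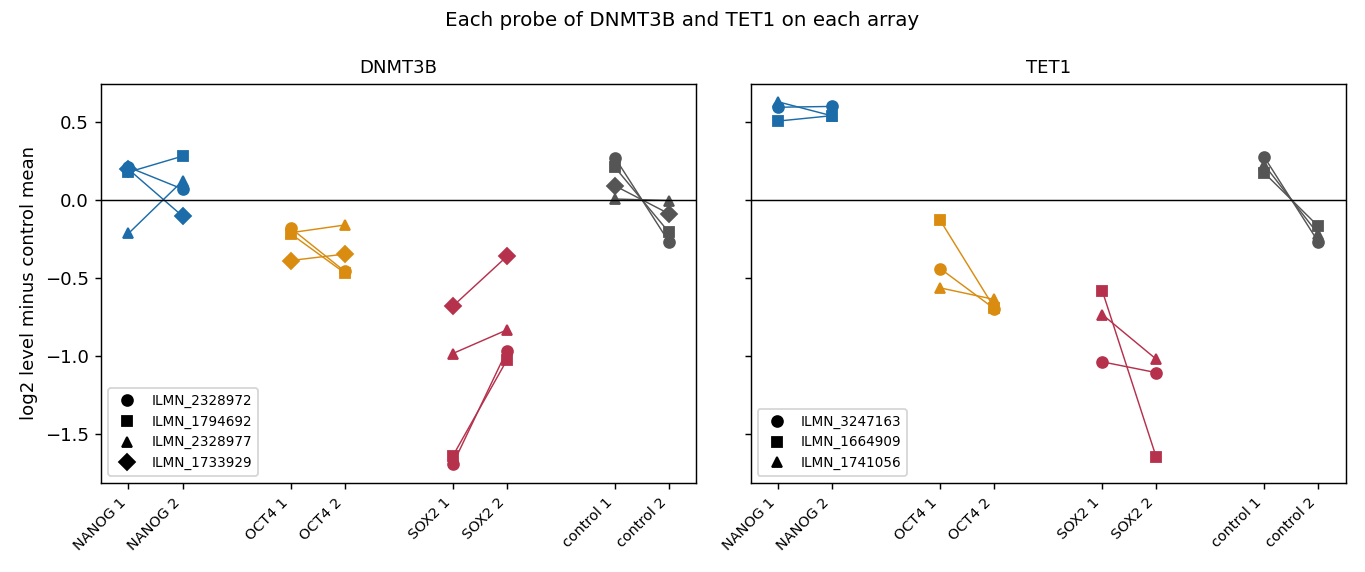
Log2 level, after background correction, of each probe of DNMT3B (left) and TET1 (right) on each of the 8 arrays, minus that probe's control mean; each marker is a probe, and lines join the 2 arrays of a group. All DNMT3B and TET1 probes lie below 0 on both SOX2 arrays and both OCT4 arrays, and all TET1 probes lie above 0 on the NANOG arrays.

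TET1, the founding TET dioxygenase and the member of that family known for high levels in embryonic stem cells, was read by 3 probes, all past the filter. The brightest, ILMN_3247163, read 828 and 831 in cells labelled NANOG, 427 and 364 with OCT4, 296 and 285 with SOX2, and 672 and 474 in control cells. No group overlapped another, in the order NANOG, control, OCT4 and SOX2 from high to low. Neighbours in that order did not pass in limma's test: the log2 differences were 0.59 for NANOG minus control (SE 0.18, adjusted p = 0.153), -0.57 for OCT4 minus control (SE 0.18, adjusted p = 0.499) and 0.50 for OCT4 minus SOX2 (SE 0.18, adjusted p = 0.161). With control replicate 1 left out the first of these passed (0.87, adjusted p = 0.0442), and with control replicate 2 left out it was 0.32. Groups further apart passed with all arrays. SOX2 lay 1.07 below control (log2 difference -1.07, SE 0.18, adjusted p = 0.0115). NANOG lay above SOX2 by 1.67 (SE 0.18, adjusted p = 0.000889) and above OCT4 by 1.16 (SE 0.18, adjusted p = 0.00876).

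ILMN_1741056 gave the same order of TET1 levels, with a log2 difference of 0.58 for NANOG minus control that missed with all arrays (adjusted p = 0.131) and passed without either SOX2 array (0.036). It read 520.4 and 491 with NANOG, 252 and 241 with OCT4, 228 and 195 with SOX2, and 403 and 308 in control, again with no overlap between groups. It fell in SOX2 against control (log2 difference -0.88, SE 0.16, adjusted p = 0.0185), and it was higher in NANOG than in SOX2 (1.46, SE 0.16, adjusted p = 0.00112) and than in OCT4 (1.18, SE 0.16, adjusted p = 0.00596). ILMN_1664909 read 501 and 512 with NANOG, 338 and 243 with OCT4, 258 and 145 with SOX2, and 406 and 329 in control. OCT4 overlapped both SOX2 and control at this probe, and the SOX2 arrays differed by 1.07 log2 units. It passed only for NANOG against SOX2 (log2 difference 1.64, SE 0.32, adjusted p = 0.0129) and missed for SOX2 against control (-1.12, SE 0.32, adjusted p = 0.074). Without SOX2 replicate 1 that difference was -1.65 and passed (adjusted p = 0.000464), and without SOX2 replicate 2 it was -0.58. The 3 TET1 probes correlated at 0.91 to 0.99 over the 8 arrays, and the brightest TET1 and DNMT3B probes at 0.86.

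Against control, then, 5 of the 13 member probes passed in cells labelled SOX2, 0 higher and 5 lower, where 4.34% of all probes were called higher, 3.67% lower and 8.01% in either direction. These are 3 probes of DNMT3B and 2 of TET1 that move together, so they are not 5 separate results. In a fit with 1 probe per gene, 2 of 6 members were called lower, beside 623 of 12436 named genes. In cells labelled NANOG 0 passed in limma's test, where 1.78% of all probes were called higher, 0.536% lower and 2.32% in either direction. In cells labelled OCT4 0 passed, where 0.151% of all probes were called higher, 0.0229% lower and 0.174% in either direction. At an unadjusted p under 0.05 the member probes numbered 8 of 13 for SOX2, 3 of 13 for NANOG and 3 of 13 for OCT4, where 23.4%, 14.4% and 6.5% of all probes did so. The arrays of both groups did not overlap for 9 member probes with SOX2, 7 with NANOG and 6 with OCT4, where 47.4%, 52.3% and 38.3% of all probes did not overlap. The median log2 difference over the 13 probes was -0.88 with SOX2, 0.14 with NANOG and -0.19 with OCT4, beside -0.0078, -0.018 and -0.0019 over all probes. DNMT3B supplied 4 of the 13 probes and TET1 3, so this median leans on those genes and does not describe the 6 genes as a group. The comparisons share their 2 control arrays. The SOX2 calls rest on control replicate 1 and on the pooled spread. Without control replicate 2 all 5 calls remained, and 929 of all probes passed. With control replicate 1 left out, 0 of the 13 member probes passed and 347 of all probes did, against 1749 with all arrays, and the log2 differences of the called probes were then -1.12 to -0.66 (adjusted p from 0.0608 to 0.145). With only the SOX2 and control arrays in the fit, 0 member probes and 189 of all probes passed. Without either NANOG array 3 of the 5 calls remained and 711 of all probes passed, those of DNMT3B ILMN_2328972 and TET1 ILMN_1741056 being lost at adjusted p = 0.0556 and 0.0538. Without SOX2 replicate 1, 10 member probes and 5444 of all probes passed. The 11 stem cell markers, NANOG, POU5F1 and SOX2 among them, summed to 24985 and 27070 on the SOX2 arrays, against 30123 and 31138 on the control arrays. With SOX2, 3 of them were called lower and 0 higher. The sum also lay below both control arrays with NANOG (27438 and 27951, 1 marker called lower) and with OCT4 (28135 and 28296, 0 called). The part of these marker differences in those of DNMT3B and TET1 was not tested. The fibroblast markers past the filter, 6 of 8, summed to 2260 and 3039 on the SOX2 arrays, against 2889 and 3298 on the control arrays, with 1 of them called lower and 0 higher. Their sum lay above both control arrays with NANOG (3743 and 3897) and with OCT4 (3548 and 3831), with 0 called. Of 7 blood and endothelium markers 2 passed the filter, CD34 and TEK, and summed to 376 and 379 on the SOX2 arrays, against 295 and 435 on the control arrays, with 0 called. They summed to 236 and 260 with NANOG, below both control arrays, and to 272 and 340 with OCT4, with 0 called in either. NES, the neural progenitor marker measured, read 878 and 1758 on the SOX2 arrays, against 892 and 945 on the control arrays. It read 961 and 1002 with NANOG, above both control arrays, and 673 and 895 with OCT4.

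**Figure D3:**
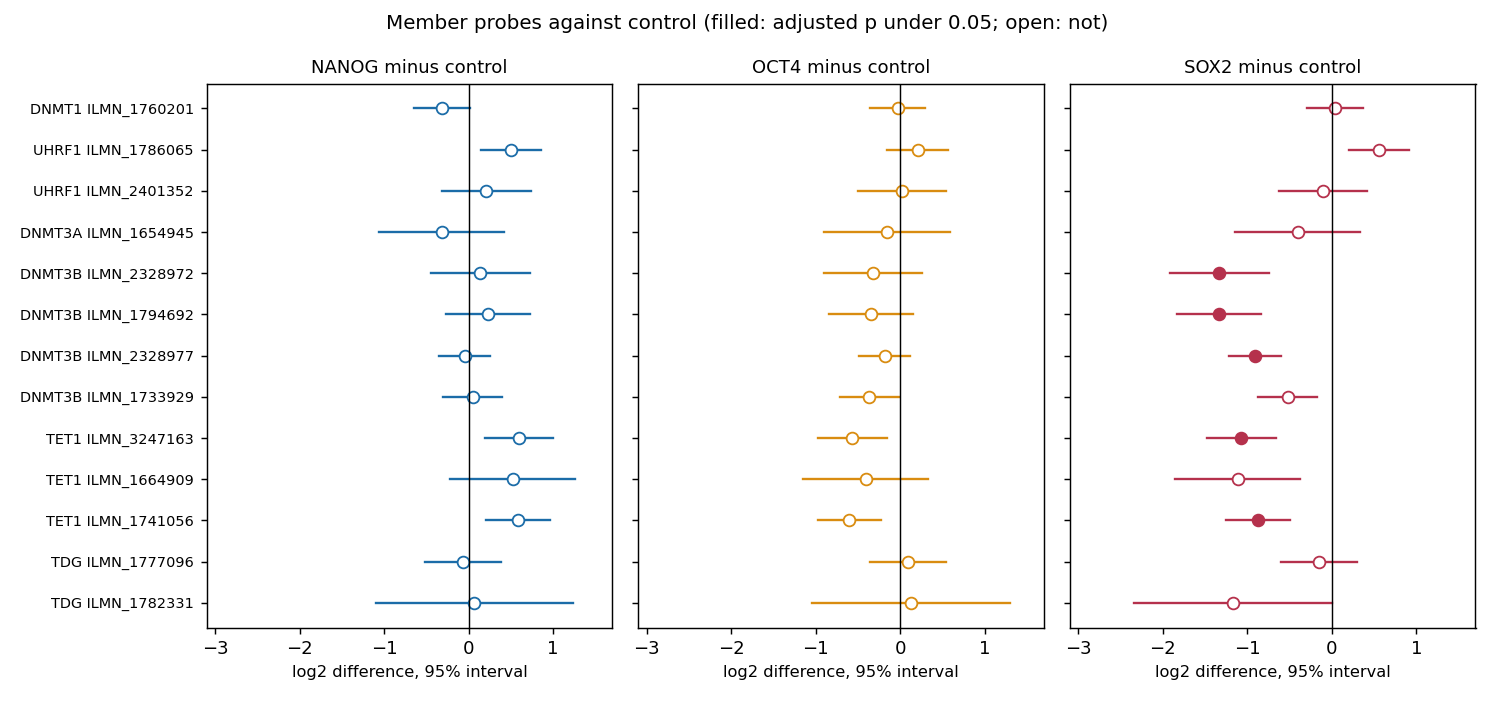
Log2 difference from control of each member probe past the filter, with its 95% interval from limma, for NANOG, OCT4 and SOX2; filled points passed at an adjusted p of 0.05. Filled points occur only in the SOX2 panel, at 3 DNMT3B and 2 TET1 probes.

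Between the factors, the member probes that passed were those of DNMT3B and TET1. These comparisons share their factor arrays with each other and with the comparisons against control, and all use the same pooled spread. In cells labelled NANOG against cells labelled SOX2, 7 of 13 were called, all higher with NANOG, where 6.86% of all probes were called higher, 6.61% lower and 13.5% in either direction. They comprise all 4 DNMT3B probes past the filter and all 3 TET1 probes. The brightest DNMT3B probe lay higher by 1.47 (SE 0.25, adjusted p = 0.00746), or 2.77-fold, and ILMN_1794692 by 1.56 (SE 0.22, adjusted p = 0.00289), or 2.95-fold. The dim DNMT3B probe ILMN_1733929 (0.57, adjusted p = 0.0427) was lost with any 1 array left out except SOX2 replicate 2. The brightest DNMT3B probe and TET1 probe ILMN_1664909 were lost without either NANOG array (adjusted p up to 0.101), and ILMN_2328977 without NANOG replicate 2 (adjusted p = 0.0518). The calls of ILMN_1794692 and of the TET1 probes ILMN_3247163 and ILMN_1741056 held with any 1 array left out, at adjusted p up to 0.0413.

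In cells labelled NANOG against cells labelled OCT4, 2 of 13 were called, both TET1 and both higher with NANOG, where 3.22% of all probes were called higher, 1.91% lower and 5.12% in either direction. DNMT3B did not pass there, at log2 differences of 0.14 to 0.57 over its 4 probes and adjusted p from 0.189 to 0.693. Both TET1 calls ended with NANOG replicate 1, NANOG replicate 2 or OCT4 replicate 2 left out, at log2 differences of 1.03 or more and adjusted p of at most 0.111. In cells labelled OCT4 against cells labelled SOX2, 2 of 13 were called, both DNMT3B and both higher with OCT4, where 2.01% of all probes were called higher, 2.74% lower and 4.75% in either direction. They were ILMN_1794692 (0.99, SE 0.22, adjusted p = 0.0404) and ILMN_2328977 (0.72, SE 0.13, adjusted p = 0.0219), and both ended without either OCT4 array. The call of ILMN_1794692 ended also without either NANOG array (adjusted p = 0.0995) or either control array (0.0524). The arrays did not overlap for 9 of 13 member probes in NANOG against SOX2, 9 in NANOG against OCT4 and 7 in OCT4 against SOX2, where 53.9%, 56.3% and 45.6% of all probes did not.

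The maintenance pair gave no call. DNMT1 read 3129 and 2872 in cells labelled NANOG, 3269 and 4069.8 with OCT4, 4065 and 3589.5 with SOX2, and 3506 and 3956 in control. Both NANOG arrays lay below every other array, with a log2 difference from control of -0.32 (95% interval -0.64 to 0.01, adjusted p = 0.366). The OCT4 and SOX2 arrays overlapped control, at -0.03 (95% interval -0.36 to 0.30) and 0.04 (95% interval -0.29 to 0.36), and both of these signs turned with some array left out. UHRF1 probe ILMN_1786065 read 683 and 615 with NANOG, 551 and 521 with OCT4, 582 and 779.9 with SOX2, and 458 and 482 in control. All 6 factor arrays lay above both control arrays, with log2 differences of 0.50 for NANOG (95% interval 0.15 to 0.86, adjusted p = 0.168), 0.21 for OCT4 (95% interval -0.15 to 0.56, adjusted p = 0.959) and 0.56 for SOX2 (95% interval 0.20 to 0.92, adjusted p = 0.0664). It passed for NANOG without either SOX2 array (adjusted p = 0.0207) and for SOX2 without SOX2 replicate 1 (0.79, adjusted p = 0.00186). The other UHRF1 probe read only 102 to 152, near the filter intensity, and did not follow the brighter one (r = -0.23 over the 8 arrays).

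DNMT1 and UHRF1 are known to rise in S phase, so a list of S phase genes is given beside them. Of 15 measured, 0 passed in cells labelled NANOG (median log2 difference -0.17, 11 below control, against a median of -0.02 over all named genes) and 0 in cells labelled OCT4 (median 0.02, against 0.00). In cells labelled SOX2 the median was -0.13, with 12 below control and 3 above, against 0.00 over all named genes. There 0 rose and 1 fell, where 5.65% of named genes rose and 4.41% fell, so 1 of 15 is near the background. The gene was MCM4, a subunit of the replicative helicase, at 1739 and 1039 on the SOX2 arrays, against 2559 and 2519 on the control arrays (log2 difference -0.94, SE 0.23, adjusted p = 0.0462). MCM4 passed without SOX2 replicate 1 and lost its call with any 1 of the other 7 arrays left out.

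DNMT3A, the other enzyme of new methylation, had 1 probe past the filter, and it was dim. ILMN_1654945 read 183 and 191 with NANOG, 188 and 223 with OCT4, 245 and 134 with SOX2, and 199 and 250.4 in control. The SOX2 arrays spanned nearly the whole range of the others, and no comparison with control passed (log2 differences -0.32, -0.15 and -0.40 for NANOG, OCT4 and SOX2, adjusted p = 0.751, 1 and 0.503). Without SOX2 replicate 1 the SOX2 difference was -0.98 (adjusted p = 0.00369), and without SOX2 replicate 2 it was 0.17. The platform annotation ties the 3 DNMT3A probes to 3 different transcripts, and where the probes lie was not known, so forms of DNMT3A were not told apart.

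TDG, the thymine DNA glycosylase, was read by a pair of probes tied to the same transcript. ILMN_1777096 read 1760.1 and 1571 with NANOG, 1761 and 1951 with OCT4, 1952 and 1261 with SOX2, and 1673 and 1806 in control, so the SOX2 arrays held both the highest and the lowest value. ILMN_1782331 read 779.7 and 740.2 with NANOG, 854 and 732 with OCT4, 659 and 193 with SOX2, and 714 and 739.7 in control. SOX2 replicate 2 stood 2.03 log2 units below SOX2 replicate 1 there, and the other 7 arrays lay within 659 and 854. Neither probe passed for SOX2 against control (log2 differences -0.15 and -1.17, adjusted p = 0.7 and 0.215). With SOX2 replicate 1 left out both passed, at -0.48 (adjusted p = 0.0289) and -2.18 (adjusted p = 8.88e-06). With SOX2 replicate 2 left out the first stood at 0.17.

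Between the 2 SOX2 arrays, 7 of the 13 member probes differed by more than 0.5 log2 units, against 14.9% of all probes, while 0 did so between the NANOG arrays, 1 between the OCT4 arrays and 2 between the control arrays. Of these 7, the DNMT3B probes ILMN_2328972 and ILMN_1794692 were higher on SOX2 replicate 2. UHRF1 probe ILMN_2401352, TET1 probe ILMN_1664909, DNMT3A and both TDG probes were higher on SOX2 replicate 1.

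Few of the other genes of DNA methylation passed against control. Of 13 measured cofactors of maintenance and heterochromatin, 1 rose and 0 fell with NANOG, 0 passed with OCT4, and 0 rose and 1 fell with SOX2, where the named genes that rose and fell made up 2.3% and 0.675% with NANOG, 0.201% and 0.0402% with OCT4, and 5.65% and 4.41% with SOX2. The riser was DPPA3, which in mouse oocytes keeps UHRF1 out of the nucleus, at 2018 and 1642 on the NANOG arrays, against 163 and 130.2 on the control arrays (log2 difference 4.11, SE 0.17, adjusted p = 0.000112). It passed with any 1 array left out. The gene that fell was HELLS, a chromatin remodeller needed for normal DNA methylation, at 330.1 and 311 on the SOX2 arrays, against 428 and 419 on the control arrays (-0.45, SE 0.10, adjusted p = 0.0366). HELLS passed without SOX2 replicate 1, lost its call with any 1 of the other 7 arrays left out, and read about as low on the OCT4 arrays, 314 and 325, where the difference did not pass (-0.46, adjusted p = 0.228). CDCA7, the partner of HELLS, did not pass against control (log2 difference 1.12 with NANOG, adjusted p = 0.0663, and -0.91 with SOX2, adjusted p = 0.068). Between factors, 3 of the 13 cofactors were higher and 1 lower with NANOG than with SOX2, where 8.3% and 8.28% of named genes were. Against OCT4, 3 were higher with NANOG and 0 lower, where 3.96% and 2.49% of named genes were. The 3 were DPPA3, CDCA7 and HELLS in both. The list was chosen with earlier results of these data known, so its counts beside those shares are only a description. CDCA7 read 4443 and 4271 on the NANOG arrays, against 1512 and 811 on the SOX2 arrays (2.02, SE 0.25, adjusted p = 0.00179), and this call held with any 1 array left out. Against the OCT4 arrays, at 1890.5 and 1877, it lay higher by 1.23 (SE 0.25, adjusted p = 0.0308), a call lost with any 1 NANOG, OCT4 or control array left out. HELLS passed by 0.47 in both comparisons (adjusted p = 0.0214 against SOX2 and 0.0389 against OCT4) and lost both calls without either NANOG array, the second also with any 1 OCT4 or control array left out. UHRF2, a relative of UHRF1, was the lower gene, at 120.1 and 138 on the NANOG arrays, against 167 and 186 on the SOX2 arrays (-0.63, SE 0.16, adjusted p = 0.0378), and kept its call in only 3 of the 8 fits with 1 array left out.

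Of 19 measured partners of the TET enzymes and genes of base excision repair, 0 passed with NANOG, 0 with OCT4, and 1 rose and 1 fell with SOX2, shares near the 5.65% and 4.41% of all named genes. CXXC5, a zinc finger protein that binds unmethylated CpG and associates with TET2, read 966 and 542 on the SOX2 arrays, against 2645 and 2304 on the control arrays, and fell by 1.84 (SE 0.24, adjusted p = 0.00461). GADD45A, a stress-induced protein linked to active demethylation, read 692 and 639 on the SOX2 arrays, against 334 and 371 on the control arrays, and rose by 1.01 (SE 0.18, adjusted p = 0.0161). Of 11 measured genes that supply the methyl donor S-adenosylmethionine, 1 rose with SOX2, against the 5.65% of named genes that did, and no other passed in any comparison with control. It was SHMT2, the mitochondrial serine hydroxymethyltransferase, at 4038 and 4443 on the SOX2 arrays, against 2138 and 2499 on the control arrays (0.89, SE 0.14, adjusted p = 0.0104). The CXXC5, GADD45A and SHMT2 calls ended without control replicate 1 (adjusted p = 0.0544, 0.122 and 0.0903), and that of GADD45A also without control replicate 2 (0.0532).

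Of 6 measured readers of methylated CpG, 0 passed against control in any group, with a median of 0.29 in cells labelled SOX2, 0.15 with NANOG and 0.12 with OCT4. Germline genes that promoter methylation keeps silent in somatic cells were mostly dim: 5 of 15 were measured, 0 passed, and the medians were 0.06 with NANOG, -0.08 with OCT4 and -0.18 with SOX2. The largest difference among them was that of DAZL, a germ cell RNA-binding protein, at -0.75 with SOX2 (adjusted p = 0.0851).

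**Figure D4:**
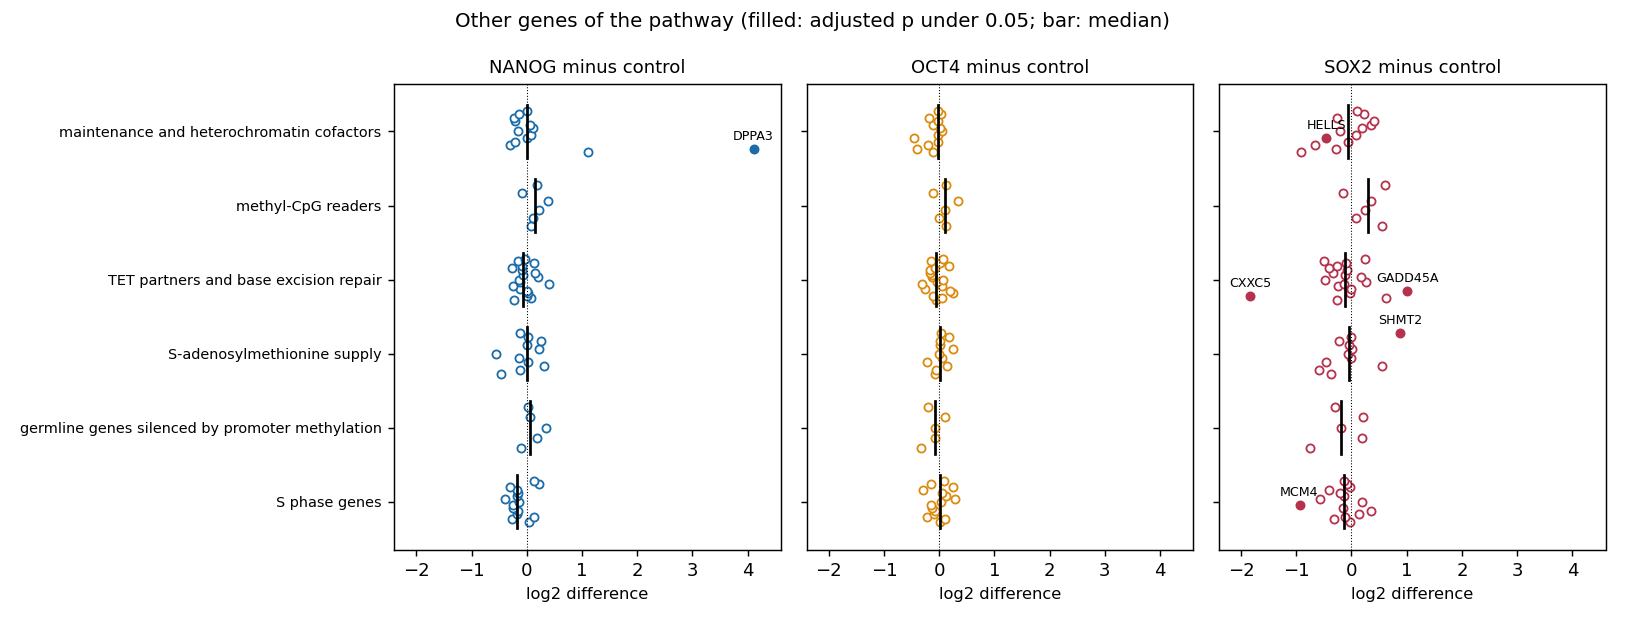
Log2 difference from control of the measured genes on 6 lists around DNA methylation, for NANOG, OCT4 and SOX2; each point is a gene, bars are list medians, and filled, named points passed at an adjusted p of 0.05. The named points are DPPA3 with NANOG, and CXXC5, HELLS, MCM4, GADD45A and SHMT2 with SOX2.

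The genes whose log2 levels followed the brightest probe of each called member most closely over the 8 arrays were sought among the 1984 other named genes that ranged over at least 1 log2 unit. For DNMT3B they were PLGRKT (Pearson's r = 0.98), the metallothionein gene MT1X (0.97) and SNCG (0.96). MT1X read 1467 and 2236 with SOX2 and 10576 and 6094 in control, with the same order of arrays within both groups as DNMT3B, though its probe may bind related metallothionein RNAs. For TET1 they were CORO2A, CEACAM1 and BEND5, each at 0.99. CORO2A read 894 and 897 with NANOG, 389 and 365 with OCT4, 303 and 259 with SOX2, and 695 and 516 in control. These correlations are descriptions over 8 arrays that share their groups.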

How the data were processed

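RNA of 8 H1 samples had been measured on Illumina arrays. The authors' deposited intensity values (47323 probes, 86.3 to 22884) were used. Their sorted values differed between arrays by at most 2.3, so the arrays were already quantile normalized, with a tool not given in the sources used here. Another deposited table, of unnormalized signals, holds 16 columns whose names match no sample label, and these were left out. Detection p-values were therefore lacking, and the design's fallback was applied: normexp background correction (offset 50, limma 3.58.1, R 4.3.3), log2, no further normalization, and the intensity filter. All 8 arrays entered 1 limma model (lmFit, eBayes) with a mean per group, 4 residual and 4.34 prior degrees of freedom, and Benjamini-Hochberg adjustment over 21828 probes at 0.05. Every member probe was kept apart. Folds include the offset, which understates changes of dim probes. With 2 arrays per group, the number of arrays limits precision, and an exact permutation test could not go below 0.333. The procedure was tested on simulated data in which each probe had the same spread in all groups. That test does not cover the unequal spread of the groups here.

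Symbols came from the platform annotation, 1 each for 30113 probes, several for 8 and none for 17202, checked by gene number against RefSeq (0 changed). Other genes were represented by their brightest probe (12436 genes). The members and lists were chosen with earlier results of these data known. By rule, the text names every member probe, up to 4 passing genes per list, and the 3 genes most like each member called against control; NES, CDCA7, DAZL and the factor probes were added after their values were seen. Alternatives changed the background correction, normalization, filter, probe choice, arrays in the fit, weights, prior and pairing. Promoters of 8 members were found in the RefSeq table.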

Additional observations from a re-analysis of the deposited data

How the results depend on the processing

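The precision of all values is limited by 2 arrays per group, and with 1 array left out the other is assumed to vary like the remaining groups. With all arrays kept, the 5 SOX2 calls against control held under no background correction, an offset of 16, no filter, array weights and a trended robust prior. A further quantile normalization left every count as it was, which is no check, since the arrays were already quantile normalized. The number of member probes called was 0 for NANOG against control (3 with only both groups in the fit, 3 with array weights, 0 to 2 with 1 array left out), 0 for OCT4 against control under every setting, and 5 for SOX2 against control (0 with only both groups, 2 with 1 probe per gene, where DNMT3B and TET1 have 1 probe each, 0 to 10 with 1 array left out). It was 7 for NANOG against SOX2 (2 with 1 probe per gene, 3 to 10 with 1 array left out), 2 for NANOG against OCT4 (1 with 1 probe per gene, 6 with only both groups, 5 with array weights, 0 to 4) and 2 for OCT4 against SOX2 (1 with an offset of 16, 0 with 1 probe per gene, with only both groups and with array weights, 0 to 8). The counts with 1 probe per gene fall because 6 probes remain.

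Over all probes, 506 passed for NANOG against control (260 with the filter on all 8 arrays, 1674 with only both groups, at 994 up and 680 down, 1630 with array weights, 67 to 1520 with 1 array left out). For OCT4 against control 38 passed (14 with the filter on all 8 arrays, 115 with array weights, 1 to 195). For SOX2 against control 1749 passed (189 with only both groups, 793 with array weights, 347 to 5444). NANOG against SOX2 gave 2939 (1748 with only both groups, 700 to 6161), NANOG against OCT4 1118 (722 with the stricter filter, 3419 with only both groups, 3143 with array weights, 149 to 2544) and OCT4 against SOX2 1036 (157 with only both groups, 562 with array weights, 245 to 5071). The cause of these shifts was not tested.

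Signs turned only for differences that had not passed, with 1 array left out. Over those fits NANOG minus control ran from -0.13 to 0.41 for DNMT3B probe ILMN_2328972, -0.22 to 0.12 for ILMN_2328977, -0.10 to 0.20 for ILMN_1733929 and -0.15 to 0.018 for TDG probe ILMN_1777096. OCT4 minus control ran from -0.19 to 0.13 for DNMT1, -0.0545 to 0.091 for UHRF1 probe ILMN_2401352 and -0.36 to 0.051 for DNMT3A. SOX2 minus control ran from -0.054 to 0.13 for DNMT1, -0.46 to 0.26 for UHRF1 probe ILMN_2401352, -0.98 to 0.17 for DNMT3A and -0.48 to 0.17 for TDG probe ILMN_1777096.

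The labels do not say that a replicate number marks a shared batch, and each comparison holds 2 pairs. The correlation of same-numbered deviations ran from -0.19 to 0.35. With the replicate block, 24 probes passed for OCT4 against control and 449 for NANOG against control, with 0 member probes in both. Member probes called under the block numbered 6 for SOX2 against control, 6 for NANOG against SOX2, 2 for NANOG against OCT4 and 1 for OCT4 against SOX2. For SOX2 against control and OCT4 against SOX2, where the correlation was under -0.1, crossing the numbers in a fit of both groups, chosen after seeing the data, gave 571 and 476 probes, of which 4 and 2 were member probes.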
